A study of Homo sapiens with 6 samples.

Results

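DNA G-quadruplex (G4) peaks found at the start or end of a single protein-coding gene in hexanediol-treated U2OS cells, and at no overlapping place in untreated cells, numbered 372 of the 2172 peaks that the treated cells gave on chromosomes 1 to 22 and X. They lay at 368 genes. The 2 peak lists together held 5776 peaks, 3507 from untreated cells (Ctrl) and 2269 from cells given 1,6-hexanediol (HD). U2OS is a human osteosarcoma line, and G4s were mapped in it with BG4, an antibody to these structures, used for chromatin immunoprecipitation ahead of sequencing (ChIP-seq). Per condition there were 2 ChIP libraries and 1 input library, so 6 libraries in all, and 1 peak list. The peaks were chosen by the 2 lists of called positions: an HD peak was taken if it shared no base with a Ctrl peak and touched the window of 1 kb either side of the start or end of exactly 1 protein-coding gene. Their absence from the Ctrl list and their place near a gene end are therefore given, not found. A missing call in Ctrl is not an absence of signal, and fragment numbers at uncalled Ctrl sites were not used here. The names of all 2269 HD peaks carry replicate number 1, so it is not clear that both ChIP libraries stand behind that list. With 1 list per condition no value has a replicate error, and no difference was tested. Intervals are exact 95% binomial or Poisson intervals and cover counting error only. The sources used here give no dose or duration for hexanediol.

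A G4 is a stack of guanine tetrads that a guanine-rich single strand can fold into when the duplex opens, typically from 4 runs of guanines separated by short loops. G4s recovered from chromatin with BG4 are known to lie mainly at nucleosome-depleted promoters, often of active genes. 1,6-Hexanediol, a small alcohol, breaks the weak hydrophobic contacts that hold many condensates together, and it can affect other cell structures too.

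The sequences of 8 promoters that hold the summit of such a peak are printed here. A motif marked in them lies in the promoter and need not lie at the summit. Each run is the 250 bases before the gene's start in RefSeq (GRCh38.p14, the assembly of hg38), 5′ to 3′ on the gene's strand. They are the strongest members by the authors' −log10 q whose promoters allowed it. Capitals mark a G4 motif, defined as 4 runs of at least 3 guanines with loops of 1 to 7 bases. Runs of C in capitals are a motif on the other, template strand. The first 6 promoters hold a motif.
MYPOP (chr19:45902614-45902863, minus strand): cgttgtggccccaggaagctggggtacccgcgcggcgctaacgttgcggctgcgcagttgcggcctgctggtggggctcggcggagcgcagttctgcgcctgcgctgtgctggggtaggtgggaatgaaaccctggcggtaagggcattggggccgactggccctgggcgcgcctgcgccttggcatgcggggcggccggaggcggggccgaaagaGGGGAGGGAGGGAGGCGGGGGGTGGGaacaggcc
PARP16 (chr15:65286884-65287133, minus strand): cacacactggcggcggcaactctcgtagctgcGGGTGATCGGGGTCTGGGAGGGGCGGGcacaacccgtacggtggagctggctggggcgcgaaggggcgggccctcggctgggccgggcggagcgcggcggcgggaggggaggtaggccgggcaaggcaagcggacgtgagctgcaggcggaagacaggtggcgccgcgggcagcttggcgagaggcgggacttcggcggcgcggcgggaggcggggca
MTMR12 (chr5:32312940-32313189, minus strand): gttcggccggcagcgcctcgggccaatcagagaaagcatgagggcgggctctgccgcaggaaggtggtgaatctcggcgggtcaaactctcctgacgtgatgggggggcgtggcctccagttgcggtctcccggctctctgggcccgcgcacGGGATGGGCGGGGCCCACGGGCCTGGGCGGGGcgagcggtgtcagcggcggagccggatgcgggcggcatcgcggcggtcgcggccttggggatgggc
STK38L (chr12:27244036-27244285, plus strand): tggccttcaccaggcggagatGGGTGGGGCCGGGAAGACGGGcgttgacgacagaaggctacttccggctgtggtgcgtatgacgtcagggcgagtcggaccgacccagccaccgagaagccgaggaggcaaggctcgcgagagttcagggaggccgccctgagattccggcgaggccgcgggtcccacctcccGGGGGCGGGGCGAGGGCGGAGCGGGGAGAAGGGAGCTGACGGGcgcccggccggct
ABRAXAS1 (chr4:83485101-83485350, minus strand): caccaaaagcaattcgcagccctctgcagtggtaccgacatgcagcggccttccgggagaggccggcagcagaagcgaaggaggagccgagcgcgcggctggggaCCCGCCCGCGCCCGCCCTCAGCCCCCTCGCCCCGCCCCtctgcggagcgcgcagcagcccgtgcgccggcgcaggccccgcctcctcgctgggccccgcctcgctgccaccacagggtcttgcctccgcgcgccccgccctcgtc
PPM1F (chr22:21952849-21953098, minus strand): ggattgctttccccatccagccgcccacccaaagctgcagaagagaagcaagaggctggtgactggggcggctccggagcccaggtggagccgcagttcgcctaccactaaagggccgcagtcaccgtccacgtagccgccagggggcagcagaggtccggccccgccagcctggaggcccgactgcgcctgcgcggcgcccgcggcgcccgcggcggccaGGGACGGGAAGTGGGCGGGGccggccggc
MYPOP encodes a Myb-related transcription repressor, PARP16 an ADP-ribosyltransferase of the endoplasmic reticulum, MTMR12 a catalytically inactive myotubularin and STK38L an NDR kinase. ABRAXAS1 encodes a scaffold of the BRCA1-A complex and PPM1F a protein phosphatase. The MYPOP motif lies just before the start, whereas that of PARP16 lies far upstream within the printed run. STK38L has 2 motifs in its run. ABRAXAS1 shows the template-strand case. The next promoters hold no motif under this definition although their peaks are of like strength.
COQ8A (chr1:226940044-226940293, plus strand): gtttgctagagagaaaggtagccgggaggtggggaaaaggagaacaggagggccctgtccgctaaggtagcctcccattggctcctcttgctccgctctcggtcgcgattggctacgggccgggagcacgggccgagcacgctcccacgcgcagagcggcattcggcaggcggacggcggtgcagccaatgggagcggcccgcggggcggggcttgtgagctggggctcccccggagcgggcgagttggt
FKBP3 (chr14:45134482-45134731, minus strand): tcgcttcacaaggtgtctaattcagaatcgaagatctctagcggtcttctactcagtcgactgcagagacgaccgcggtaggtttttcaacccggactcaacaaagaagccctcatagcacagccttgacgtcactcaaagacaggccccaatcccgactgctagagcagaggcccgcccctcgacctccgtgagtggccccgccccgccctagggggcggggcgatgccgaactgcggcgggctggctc
COQ8A encodes an atypical kinase of coenzyme Q synthesis, and FKBP3 a nuclear prolyl isomerase. At COQ8A the summit, the base with the most ChIP fragments, lay 140 bp upstream of the start with 44 fragments. At MYPOP it lay 156 bp upstream with 42 fragments. These numbers of fragments have overlapping Poisson intervals, 32.0 to 59.1 and 30.3 to 56.8.

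Of all HD peaks on these chromosomes, 876 of 2172 (40.3%) shared no base with a Ctrl peak. Among the 1031 HD peaks at a single coding-gene end the share was 36.1% (33.1 to 39.1), the 372 peaks described here. It was 36.6% (31 to 42.4) for the 287 HD peaks at 2 or more coding-gene ends and 46.7% (43.3 to 50.1) for the 854 at none. The other 659 single-gene HD peaks, called shared below, and the 765 single-gene Ctrl peaks that share no base with an HD peak, called Ctrl-only, serve for comparison. The 368 genes are 1.86% of the 19821 protein-coding genes in the table.

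The peaks were modest within the HD list. Fragment numbers at the summit, recovered from the caller's fold and p, had a median of 32 and ran from 20 to 194, with quartiles of 28 and 36. The shared peaks had a median of 39. The caller expected a median of 6.72 fragments at the summits of the HD-only peaks. At 83 of them this expectation was the genome-wide mean and not a local value from input. The authors' fold over the expectation had a median of 4.02 against 4.46 in the shared peaks. Their −log10 q had a median of 4.88 against 7. Median width was 247 bp against 286 bp. The fold, q and fragments bear on whether a peak is called, so they describe the choice of peaks. In all, 72 of the 372 peaks (19.4%) reached the median coverage of the shared peaks.

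**Figure D1:**
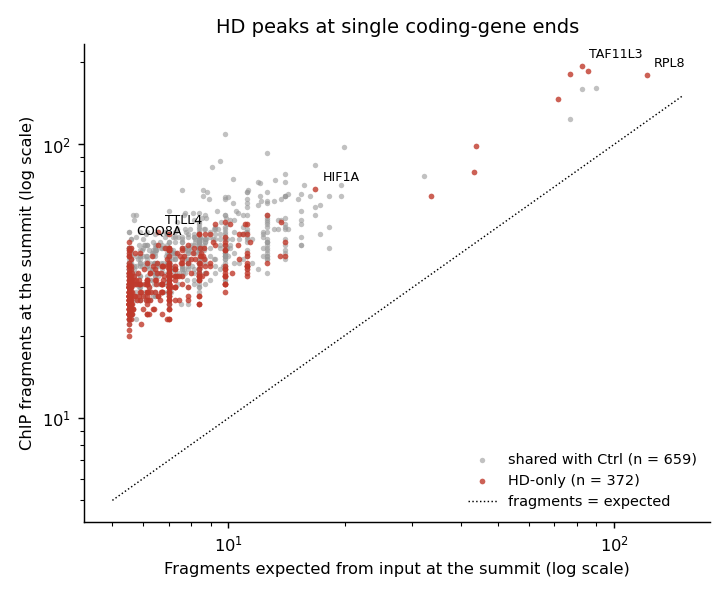
ChIP fragments at the summit (vertical) against the caller's expected fragments (horizontal), both on log scales, for HD peaks at a single coding-gene end. The expectation comes from input or is the genome-wide mean. Red points are the 372 HD-only peaks, grey points the 659 shared with Ctrl, and the dotted line is equality. Most red points lie low and to the left, and TAF11L3, HIF1A and RPL8 stand to the right with high expected numbers.

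The mean genome coverage was 3.74 fragments per base in Ctrl and 5.51 in HD, a ratio of 1.47. Set against the mean of their own condition, the HD-only summits had a median of 5.81 times the mean, the shared HD summits 7.08 times and the Ctrl-only summits 6.69 times. The lowest called summit held 15 fragments in Ctrl and 20 in HD, or 4.01 and 3.63 times the mean. Scaled down to the Ctrl coverage, the HD-only peaks would hold a median of 21.7 fragments, and 368 of 372 (98.9%) would reach 15. That number is the lowest at any Ctrl peak, and a site with more input needs more. The member with the fewest fragments would hold 13.6, so the share is largely set by the lowest HD call. Nothing is read from it. At the shared peaks the coverage relative to the mean in HD was a median of 0.889 times that of the overlapping Ctrl peak (quartiles 0.771 and 1.01). The depth thus differed between the lists, and its part in which peaks lack a Ctrl call was not tested.

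The highest −log10 q values belonged to genes of unrelated roles. TTLL4, a tubulin polyglutamylase, had 48 fragments (35.4 to 63.6) where 6.55 were expected. COQ8A had the highest fold, 6.57. BCLAF1, which regulates transcription and splicing, and CRY2, a cryptochrome of the circadian clock, both had 41 fragments, at 6.13-fold and 6.11-fold. BAD, a pro-apoptotic BCL2 relative, and ADIPOR2, an adiponectin receptor, both had 40. DCXR, a xylulose reductase, had 47 at 110 bp upstream of its start, and FKBP3 had 47 at 91 bp upstream. NAA10, an enzyme that acetylates protein N-termini, and CAPN5, a calpain protease, both had 42. STK38L and ABRAXAS1 had 39 each. PARP16 had 51 fragments (38.0 to 67.1), MTMR12 had 52 and PPM1F had 51, each with a higher input expectation and a fold under 5. The intervals of the genes named in this paragraph overlap one another, so their fragment numbers give no firm order among them. TAF11L3, TAF11L10 and HIF1A, also among the 25 highest, had more fragments.

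A small set of peaks stood on high input. Expected numbers over 1.5 times the HD mean were seen at 84 HD-only peaks (22.6%) and at 261 shared peaks (39.6%). At 9 HD-only peaks they were over 3 times the mean. TAF11L3 carried 194 fragments against 82.6 expected before its start, and 181 against 77.0 past its end. TAF11L10 carried 186 against 85.4 and 147 against 71.4. Both belong to a tandem array of near-identical TAF11-like genes on chromosome 5, so reads could be split or stacked among the copies and these 4 peaks are uncertain. RPL8, a protein of the large ribosomal subunit, had 180 fragments against 122 expected and the lowest fold of all members, 1.47. LGALS3BP, a secreted galectin-binding glycoprotein, had 79 against 43.4, and PSMB5, the chymotrypsin-like subunit of the proteasome, had 65 against 33.6. HIF1A, the oxygen-regulated subunit of hypoxia-inducible factor, differed from these with 69 fragments (53.7 to 87.3) against 16.8 expected and a fold of 3.87. Without the 4 TAF11L peaks, a setting chosen after seeing the data, the median fold was 4.04.

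Most of the peaks sat at the gene's edge. The summit lay within 250 bp of the gene end it touched in 287 of 372 peaks (77.2%, 72.5 to 81.3), against 73.3% (69.7 to 76.6) of shared and 77.0% (73.8 to 79.9) of Ctrl-only peaks. The strand could be read for 319 members (85.8%) with a RefSeq promoter entry. Of these, 306 (95.9%, 93.1 to 97.8) lay nearer the gene's start and 13 nearer its end. The share at the start was 98.1% (96.6 to 99.1) in shared and 97.7% (96.2 to 98.7) in Ctrl-only peaks. Among the 306, the summit was upstream of the start in 234 (76.5%) and downstream in 71, and 122 (39.9%) lay within 100 bp of it. The intervals of the 3 classes overlap for the share within 250 bp and for the share at the start.

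**Figure D2:**
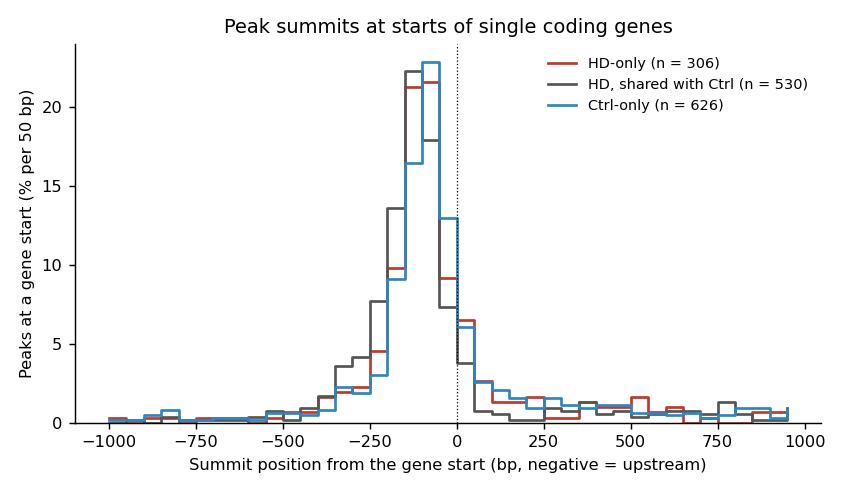
Position of the peak summit from the gene start (horizontal, bp, negative upstream) as percent of peaks per 50 bp (vertical) for HD-only (n = 306), shared (n = 530) and Ctrl-only (n = 626) peaks at starts of single coding genes. Summits up to 1 kb from the start are drawn, and all 3 lines peak within 250 bp upstream of it.

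Some members with a summit far from the gene's outer start lay at another start of the same gene. Of the 71 HD-only peaks of known strand with a summit more than 250 bp from the nearer outer end, 19 lay within 250 bp of another RefSeq start of their gene. The summit at ARHGEF1, a guanine nucleotide exchange factor, lay 1086 bp inside the gene but 173 bp before an inner start. RAB40C, a Rab-like adaptor of a ubiquitin ligase, had it 531 bp inside and 178 bp before an inner start. For MYO9A, an unconventional myosin, these distances were 376 bp and 74 bp. STK40, a pseudokinase, had 2 HD-only peaks, with 36 fragments at 43 bp and 31 at 720 bp upstream of its start. CRTAP, which takes part in collagen prolyl hydroxylation, also had 2, with 33 fragments 63 bp upstream and 39 fragments 538 bp inside the gene. With TAF11L3 and TAF11L10, these are all 4 genes with 2 member peaks.

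The 13 peaks nearest a gene's end were a mixed group. They include 3 of the 4 TAF11L peaks. SNX33, a sorting nexin, had 47 fragments with the summit 1054 bp before the end. HSPB1, the small heat shock protein HSP27, had 33 fragments 660 bp before the end of a gene of 1620 bp. CTDSP1, a phosphatase of the RNA polymerase II tail, had 27 fragments 660 bp past its end. NPIPB3 belongs to a family of near-identical copies, and CD99 lies in a region that the X and Y chromosomes share, so both are uncertain.

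The promoters under the HD-only summits were richer in GC than promoters in general, and within bands of GC content they held G4 motifs at shares near those of all promoters. The summit lay in the RefSeq promoter window, 250 bp before to 50 bp after a start, for 243 members. A motif, on either strand, was present in 98 of these windows (40.3%, 34.1 to 46.8). The same held for 43.6% (38.8 to 48.5) of the windows under shared summits, 37.8% (33.5 to 42.3) under Ctrl-only summits and 30.5% of all 22132 windows of coding genes. The median GC content was 67.7% for HD-only, 70% for shared, 68.3% for Ctrl-only and 62.3% for all windows. At 60 to 65% GC, 22.6% of HD-only windows (12.3 to 36.2) and 27.9% of all windows held a motif, and at 70 to 75% GC the shares were 55.6% (42.5 to 68.1) and 54.0%. In every band from 55% GC upwards, the share over all windows lay inside the interval of the HD-only windows. All windows include those of the members.

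**Figure D3:**
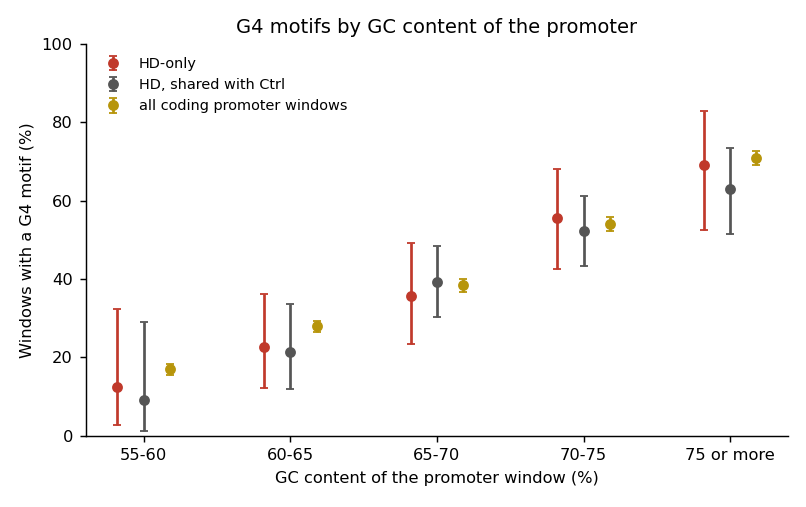
Share of 300 bp promoter windows with a G4 motif (vertical, %) by GC content (horizontal, %) for windows under HD-only summits, under shared summits and for all coding-gene windows. Points are shares and bars exact 95% binomial intervals. The shares climb with GC content in all 3 sets, and the bars of the HD-only windows span the value of all windows in each band drawn.

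The motif lay on the coding strand in 57 of the 98 windows and on the template strand in 45, with 4 on both. Its distance to the summit had a median of 59 bp, and 41 of 98 lay within 50 bp. In the shared windows the median was 38 bp and 103 of 181 lay within 50 bp. Other promoter elements were counted by their letters on both strands. The GC box GGGCGG, bound by SP1 and its relatives, was in 84.8% of HD-only windows and 56.3% of all windows. Some GC boxes lie inside G4 motifs. CCAAT, the core of the NF-Y site, was in 50.6% and 34.6%, and the ETS core CCGGAA in 30.9% and 21.2%. TATAAA was in 2.06% (0.671 to 4.74) and 9.46%. In shared windows these shares were 91.1%, 57.1%, 27.7% and 1.93% in the same order. In Ctrl-only windows they were 87.7%, 50.9%, 32.3% and 3.48%. GC content was not held equal in these counts, and a match of letters is not a bound site.

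Most of these genes had no Ctrl peak of their own, as had most coding genes. Of the 368 genes, 347 (94.3%) had no Ctrl peak at either end or in the body, 12 had one at an end and 9 only in the body. Over all 19821 coding genes 86.7% had none in the gene or within 1 kb of it. The rule leaves out peaks that overlap a Ctrl peak, so nothing is read from the difference. The median distance from an HD-only peak to the nearest Ctrl peak was 119 kb. It was under 1 kb for 9 peaks, 1 to 10 kb for 21, 10 to 100 kb for 140, 100 kb to 1 Mb for 165 and over 1 Mb for 37.

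At the 9 closest pairs the Ctrl peak stood beside the HD-only peak. PPAT, the first enzyme of purine synthesis, had 43 HD fragments, 7.80 times the HD mean, and a Ctrl peak 171 bp away with 27 fragments, 7.22 times the Ctrl mean. SRCAP, a chromatin remodeller, had 33 HD fragments and a Ctrl peak of 24 at 198 bp. IBA57, an iron-sulfur cluster factor, had 30 and 21 at 210 bp. CIC, a transcription repressor, had 38 and 22 at 321 bp. At PPAT, IBA57, CIC and ZNF687 the neighbouring Ctrl peak also overlapped another HD peak. In relative coverage the neighbours were near each other, as at IPMK, an inositol phosphate kinase, with 7.62 times the mean in HD and 7.49 in Ctrl at a gap of 756 bp. Just outside the rule, an HD peak at ZNF143 shared 30 bases with a Ctrl peak and one at RAB4B shared 34, with 29 and 26 fragments. Just inside the gene-end window lay RALB at 998 bp and SUFU at 978 bp, and just beyond it SCAP at 1004 bp.

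A few members lay several megabases from any Ctrl peak. CD99, a cell surface glycoprotein, was the farthest, at 44096 kb on the X chromosome, with 23 fragments and the uncertain mapping given above. FAM3C, a secreted cytokine-like protein, had 26 fragments and its nearest Ctrl peak 8456 kb away. ING2, a reader of H3K4 methylation, had 30 fragments, TUSC1 had 35 and GBE1, the glycogen branching enzyme, had 21, with the nearest Ctrl peak 6517 kb, 6299 kb and 6092 kb away. The GBE1 peak was close to the lowest number called in HD.

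Across chromosomes, the HD-only share of HD single-gene peaks had wide intervals. It was 29 of 58 on chromosome 11 (50%, 36.6 to 63.4), 42 of 93 on chromosome 1 (45.2%, 34.8 to 55.8) and 23 of 47 on chromosome 5 (48.9%, 34.1 to 63.9). The chromosome 5 count includes the 4 TAF11L peaks called uncertain above. The highest shares rested on few peaks, 2 of 3 on chromosome 13 (66.7%, 9.43 to 99.2) and 9 of 16 on chromosome 6 (56.3%, 29.9 to 80.2). It was lowest on chromosome 18, at 4 of 22 (18.2%, 5.19 to 40.3). On chromosome 14 it was 10 of 47 (21.3%, 10.7 to 35.7). Only the intervals of chromosomes 11 and 14 leave out the 36.1% of all chromosomes. Many chromosomes were read and none was tested. Chromosomes 1 and 2 held the most HD-only peaks, 42 and 37.

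**Figure D4:**
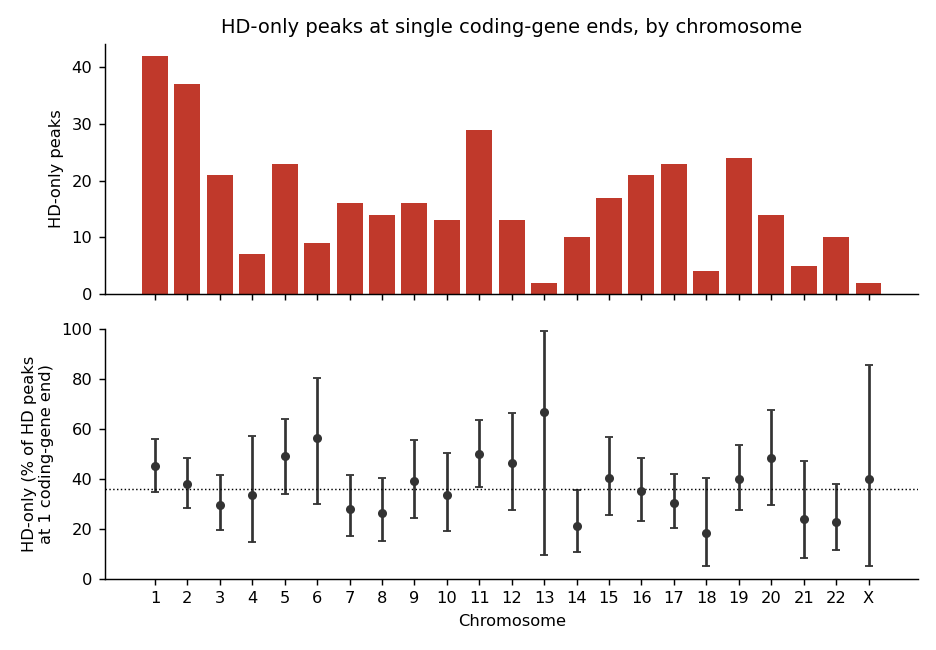
Number of HD-only peaks at single coding-gene ends per chromosome (upper panel, bars) and their share of the HD peaks of that kind (lower panel, %, points with exact 95% binomial intervals). The dotted line is the share over all chromosomes, 36.1%, and the intervals are wide where few peaks were called.

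Lists of genes chosen with earlier results of these data known were read against the 1.86% of coding genes that carried an HD-only peak. All were small counts. A Ctrl peak marked 3 of the 25 immediate-early factors and 2 of the 19 proto-oncogenes with known promoter G4s. Among 38 condensate and nuclear body proteins that count was 11, and among 60 DNA repair genes it was 13. An HD peak of any kind marked 7, 4, 8 and 13 genes of these lists, in the same order. Over all 19821 coding genes, 86.7% had no Ctrl peak in the gene or within 1 kb of it. The counts are small and no list was tested, so a share above 1.86% is not read as particular to HD-only peaks. Of 25 immediate-early factors, 4 carried one (16.0%, 4.54 to 36.1). MYC, the growth-promoting transcription factor, had 39 fragments against 14.0 expected. KLF10 had 30, SRF, the serum response factor, had 29 and JUND, an AP-1 subunit, had 24 fragments. KLF10 also had a Ctrl peak in its body. With HD peaks of −log10 q of at least 3 the count of this list fell to 2. Of 19 proto-oncogenes with known promoter G4s, 3 were members, HIF1A, MYC and YY1, a zinc finger factor with 29 fragments. MYC stands in both lists.

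Of 38 condensate and nuclear body proteins, 4 were members (10.5%). G3BP1 and CAPRIN1, partners in stress granules, had 30 and 25 fragments. YTHDF2, a reader of m6A in mRNA, and MED1, a Mediator subunit, both had 30. Of 32 G4 helicases and G4-binding proteins, YY1 and PARP1, a poly(ADP-ribose) polymerase that senses DNA breaks, were members, and PARP1 had 31 fragments. Among 60 DNA repair genes 5 were members (8.33%, 2.76 to 18.4). MSH6, of the mismatch-recognising MutSα, had 42 fragments, and FANCA, ERCC6 and OGG1 had 29, 27 and 25.

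Of 53 cell cycle and replication genes 3 were members. CDC20, an activator of the anaphase-promoting complex, had 38 fragments, BUB1, a checkpoint kinase, had 37 and RRM2, of ribonucleotide reductase, had 33. Of 63 heat shock genes 4 were members. DNAJB5 had 34 fragments, HSPB1 had 33, DNAJC21 had 31 and DNAJC13 had 23. Of 40 mesenchymal and osteosarcoma line genes 3 were members. COL1A1, the main collagen of bone, had 39 fragments, TPM2, a tropomyosin, 31 and TEAD4, a partner of YAP, 27. TPM2 also had a Ctrl peak 868 bp away, at 6.69 times the Ctrl mean against 5.62 times the HD mean. Of 23 clock genes, CRY2 alone was a member. A Ctrl peak marked 9 clock genes, and an HD peak of any kind marked 8. For cell cycle and replication genes these counts were 16 and 11, for heat shock genes 13 and 12, and for mesenchymal genes 9 and 8.

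Numbered zinc finger genes and solute carriers had shares near that of all coding genes. Zinc finger genes had 10 members of 517 (1.93%, 0.931 to 3.53) and solute carriers 6 of 386 (1.55%, 0.573 to 3.35). The glucose transporter SLC2A1 was among the latter with 44 fragments against 14.0 expected. Ubiquitin and proteasome genes had 6 of 166 (3.61%, 1.34 to 7.7), such as PSMA5 with 46 fragments and USP3 with 43. Translation factors and tRNA synthetases had 5 of 91 (5.49%, 1.81 to 12.4), among them EIF5A2 with 37. Cytosolic ribosomal protein genes had 3 of 85, RPS27L with 42 fragments, RPS13 with 27 and RPL8. No member was found among 389 olfactory receptors, where the exact interval reached 0.944% and so lay below the 1.86% of all coding genes. None was found among 77 mitochondrial ribosomal proteins, where it reached 4.68%. The same held for 70 replication-dependent histones, 55 keratins and 46 tissue-restricted genes of other cell types, where it reached 5.13%, 6.49% and 7.71%. Neither peak list marked any olfactory receptor, keratin or tissue-restricted gene, so their lack of a member is not particular to HD-only peaks.

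In the remaining lists each interval includes 1.86%, as it does in most lists above. Among those above are the heat shock, G4 helicase, cell cycle, mesenchymal, clock and cytosolic ribosomal protein lists. Chromatin modifiers had 4 of 86, and the 3 with the highest −log10 q were KMT5C, an H4K20 methyltransferase, with 37 fragments, EP400, a remodelling ATPase, with 28 and HDAC5, a class IIa deacetylase, with 29. HDAC5 also had a Ctrl peak in its body. Splicing factors had 3 of 74. SF3B2, of the U2 particle, had 31 fragments, HNRNPR had 26 and PRPF38B had 29. Kinesin, centromere and centrosome genes had 4 of 109, all of them CEP genes, with CEP68 at 39 fragments, CEP70 at 26 and CEP126 at 25. RNA polymerase, Mediator and TFIID genes had 3 of 111, GTF3C2 of TFIIIC with 34 fragments, MED1 and POLR3D, a subunit of RNA polymerase III.

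RAB and vesicle transport genes had 5 of 176, with RAB5C, an early endosome GTPase, at 42 fragments beside SNX33 and RAB40C. Nuclear pore and transport genes had 2 of 43, NUP214 with 31 fragments and NUP50 with 36. Respiratory chain genes had 2 of 97, both of complex I, NDUFS8 with 32 fragments and NDUFB4 with 30. Of 53 DEAD and DEAH box helicases, DDX18 was the member, with 30 fragments. Among zinc finger genes ZNF200 had 36 fragments, ZNF160 had 37 and ZNF639 had 35. The fragment numbers printed in this and the preceding paragraph run from 25 to 42, around the members' median of 32. SNX33, given above, had 47, and other lists hold lower and higher numbers.

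**Figure D5:**
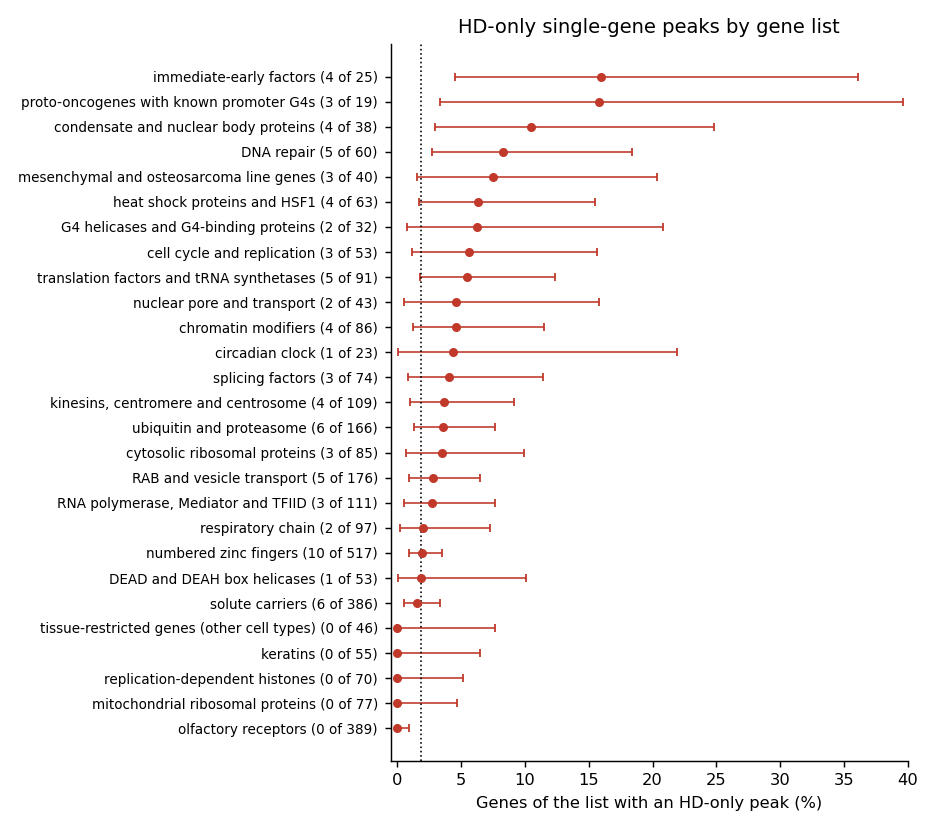
Percent of the genes of each list with an HD-only peak at 1 coding-gene end (horizontal), with exact 95% binomial intervals. The dotted line is 1.86%, the share over all coding genes, and the counts stand beside each name. Most intervals include the line, and lists at the top hold few genes.

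A noncoding RNA gene also began or ended within 1 kb of 104 of the 372 peaks (28.0%), of which 94 had a long noncoding RNA there. The share in shared peaks was 32.6%. Where both strands were known, a long noncoding RNA ran opposite to the coding gene at 72 peaks, and only along it at 1. No such split is given for shared peaks or all coding genes, so it is not read as a trait of HD-only peaks. At 7 peaks a microRNA gene lay in the window, among them MIR191 at DALRD3 with 39 fragments and MIR320A at POLR3D with 29. The host genes of the HD-only peaks had a median length of 28789 bp. It was 33762 bp for shared peaks, 35114 bp for Ctrl-only peaks and 24482 bp over all coding genes.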

How the data were processed

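BG4 ChIP-seq of U2OS cells, with and without hexanediol, gave 1 peak list per condition. Per the submitters' processing notes, the authors used MACS2 2.2.7.1, Bowtie2 2.5.0, FastQC 0.11.9 and SAMtools with build hg38. The sources used here do not give the calling settings or any removal of duplicates. The deposited lists hold the authors' score, fold enrichment (a ratio) and −log10 p and −log10 q per peak. Those values were used only within a list. The score was not analysed.

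ChIP fragments and the caller's expectation at each summit were recovered from fold and p (match within 0.01 on −log10 p). This was possible for 3486 of 3507 Ctrl and 2253 of 2269 HD peaks. All 372 members were among them, and 4 members had more than 1 solution. The method was tested on simulated data. Genes and promoter windows came from RefSeq tables of GRCh38.p14. Python 3 scripts used pandas and scipy.

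The members and gene lists were chosen with earlier results of these data known. Named genes were the 25 members with the highest −log10 q, the 5 nearest to and 5 farthest from a Ctrl peak, the 5 highest and 5 lowest folds, genes with 2 member peaks, all members of lists written by symbol and the top 3 of lists written as name patterns. Genes named as examples of position, of the rule's edges or of microRNAs, and CTDSP1, fall outside it and were picked after their values were seen. An item that the rule names is not reported here. Printed promoters were the highest by −log10 q with and without a motif. After values were seen, this was narrowed to starts at the gene's outer edge with no other gene over the bases. Fragment recovery, coverage scaling, GC bands and expectation limits were also chosen after seeing the data. Alternatives were the overlap, the window, the summit, the −log10 q minimum and the motif.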

Additional observations from a re-analysis of the deposited data

How the results depend on the processing

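Of 54 values recomputed under other settings, 48 stayed inside the interval of the value reported or, for the number of peaks, within 1.5 times of it, and 6 moved. The number of HD-only single-gene peaks ran from 297 to 400. With HD peaks of −log10 q of at least 3 the HD-only share was 32.6% and the median fold 4.2. The share of summits within 250 bp of the gene end was 82.2% with a window of 500 bp and 71.7% with one of 2 kb. The share of windows with a G4 motif was 58.8% with loops of up to 12 bases and 98.8% with runs of 2 guanines, definitions that match more sequence by construction. For all coding windows these were 45.5% and 88.2%. In the gene lists, with −log10 q of at least 3, members fell from 4 to 2 for immediate-early factors, 4 to 2 for kinesin, centromere and centrosome genes, 6 to 3 for solute carriers and 2 to 1 for nuclear pore genes. With a window of 500 bp they went from 3 to 5 for splicing factors and from 0 to 1 for mitochondrial ribosomal proteins. With 2 kb they went from 2 to 1 for the respiratory chain and from 0 to 1 for olfactory receptors. No other list moved by more than 1.5 times. No paired analysis was possible because each condition has 1 peak list. Leaving out a library was not possible for the same reason.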
